A study of Mus musculus with 4 samples.

Results

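The subject of these measurements is a set of 42 mouse genes that interferons induce and whose products act against viruses and other intracellular microbes, apart from the IFIT, oligoadenylate synthetase and Schlafen families. A gene was measured where the array's annotation gave at least 1 probe set with that symbol alone, and the probe sets of a gene were averaged. This held for 37 of the 42 genes, among 19935 genes measured in all. Gbp2, Igtp, Ifi47 and Ifi204 lay only on probe sets annotated with several symbols and Ifi44 on none annotated with 1 symbol, so these 5 genes have no value here. No filter on low values was applied to the values given here, and all 37 genes entered the fit behind them.

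The cells were Ba/F3, a mouse pro-B cell line that depends on interleukin-3 (IL-3), hybridised to Affymetrix Gene 1.0 ST arrays. BCR-ABL, the tyrosine kinase of chronic myeloid leukaemia, was switched on with doxycycline at 500 ng/ml. Cells with BCR-ABL and without IL-3 gave 2 arrays, called A and B, cells with BCR-ABL and with IL-3 gave 1 array, and the parental line with IL-3 gave 1 array. The labels mention doxycycline only for the BCR-ABL cells, so kinase, drug and derived line changed together against the parental array, and for A and B the absence of IL-3 as well. All cultures were in logarithmic growth. Whether A and B were separate cultures is not stated in the labels. The p-values below therefore rest on the spread of this 1 pair, and that spread may be technical.

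Interferons bind receptors that activate JAK kinases and STAT transcription factors. Genes of the type I response often carry the interferon-stimulated response element near their start, and genes of the interferon-gamma response the gamma-activated site. The induced genes encode proteins that block viral entry, copying and release, sensors that recognise foreign nucleic acids, GTPases that attack the vacuoles of intracellular microbes, and the machinery that loads peptides onto MHC class I.

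Every deposited value is a log difference from the parental array, whose own value is 0 for all 28815 probe sets. No label states the base of the logarithm. It is taken as 2 here, the usual choice for such arrays, and every fold given below rests on that. Levels were not analysed, so the pro-B identity of the line could not be checked by the presence of its markers, and any error of the lone parental array enters every difference from it. Over probe sets the median difference was -0.00161 on A, -0.064 on B and 0.00287 on the array with IL-3. In bulk RNA, more transcript per cell and more cells with the transcript cannot be told apart.

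Without IL-3, BCR-ABL cells had more transcript than parental cells for 19 of the 37 antiviral genes and less for 1, Tap2, by limma at an adjusted p under 0.05. Over all genes the same test called 5.19% higher and 2.87% lower. The median log2 difference was 0.520 over the antiviral genes and -0.038 over all genes, and 29 of the 37 (78.4%) were above 0, against 39.3% of all genes. At least 2-fold higher on A and on B were 11 of the 37, where 0.903% of all genes were. The values spread widely, with Zbp1 highest at 2.10 and Tap2 lowest at -0.84 (log2, BCR-ABL without IL-3 minus parental). With the median of each array set to 0 (centring), limma called 12 of the 37 higher and 1 lower. Of all 19935 genes it then called 384 higher and 186 lower. Ddx58, Ifitm3, Parp14, Eif2ak2, Rtp4, Mov10 and Nmi lost the call, while the prior of the fit stood at 4.206 degrees of freedom with centred values and at 16.38 without centring.

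**Figure D1:**
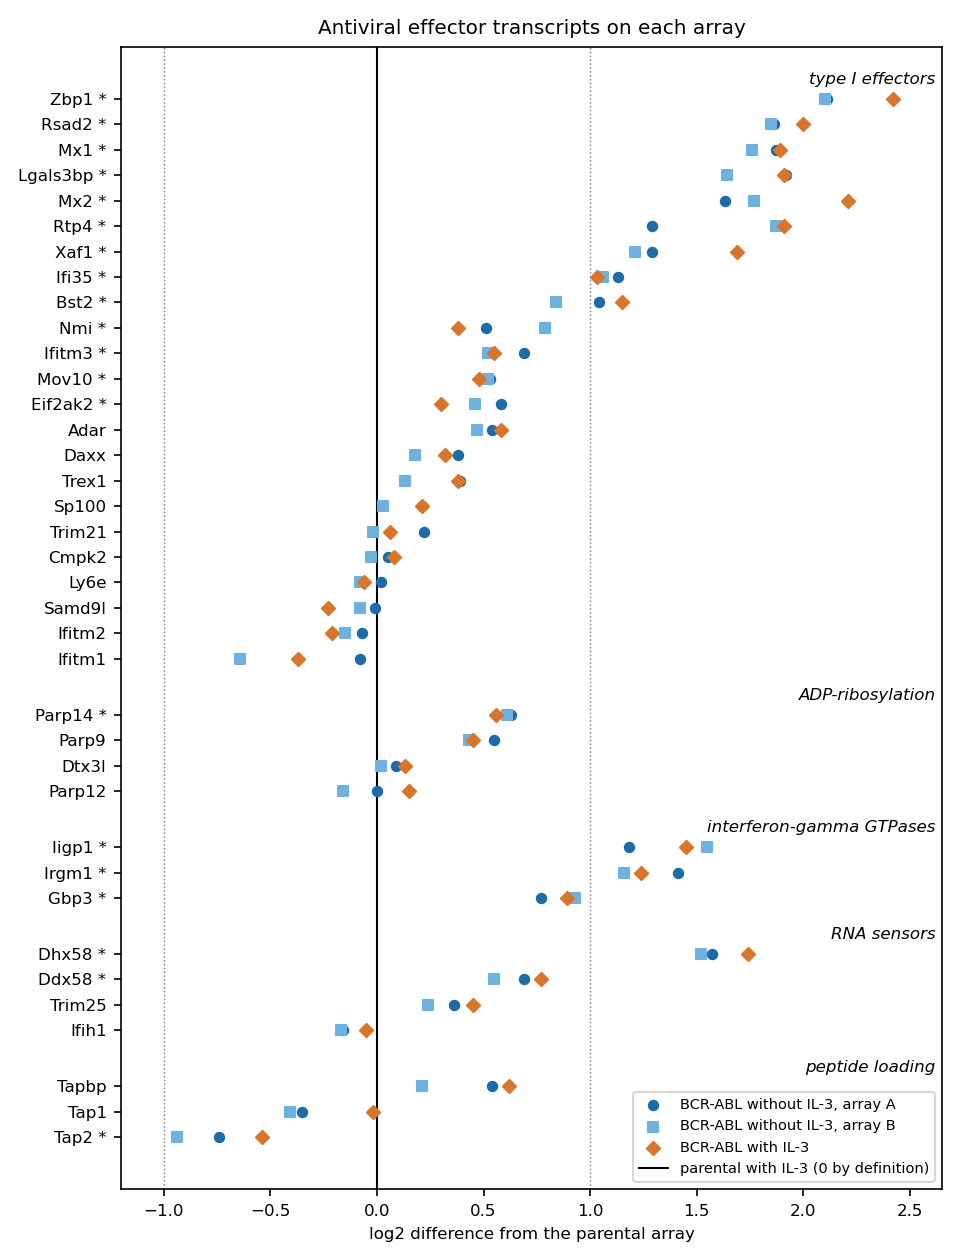
Log2 difference from the parental array (x axis) for the 37 measured antiviral genes, grouped by role, with a point for each BCR-ABL array. The line at 0 is the parental array, dotted lines mark 2-fold, and an asterisk marks the 20 genes called by limma between A and B and the parental array. By the mean of A and B, which is not plotted, Zbp1, Rsad2, Mx1, Lgals3bp and Mx2 are highest and Tap2 is lowest.

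Effectors of the type I response made up 23 of the measured genes, of which 13 were called higher, 0 lower and 10 not at all. Of all genes 5.19% were called higher and 2.87% lower, the shares to set beside the counts of this and every other role. The median log2 difference of these effectors was 0.525. The highest was Zbp1, a sensor of Z-form nucleic acids that can trigger necroptosis. Its log2 difference from the parental array was 2.11 on A, 2.10 on B and 2.42 on the array with IL-3. The mean of A and B made it 4.30-fold higher than in parental cells (log2 SE 0.15, limma adjusted p = 5.23e-08). Rsad2, or viperin, converts CTP into a nucleotide that stops viral RNA synthesis. It stood at 1.86 on A, 1.85 on B and 2.0041 with IL-3, and was 3.62-fold higher without IL-3 than in parental cells (limma adjusted p = 2.68e-07). For both genes A and B nearly coincided, well above the parental 0. Rsad2, Mx2 and Iigp1 were dim, meaning that the spacing of their values places a stored number under 8 on some array.

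The dynamin-like GTPases Mx1 and Mx2 restrict viruses in the nucleus and in the cytoplasm of mouse cells. For Mx1 the log2 differences from the parental array were 1.87 on A, 1.76 on B and 1.89 with IL-3. Those of Mx2 were 1.63, 1.77 and 2.21 in the same order. Both genes were called, at 3.52-fold and 3.25-fold above parental cells (limma adjusted p = 4.02e-07 and 1.00e-06). Lgals3bp, a secreted glycoprotein that binds galectins, was at 1.92 on A, 1.64 on B and 1.91 with IL-3, and was 3.43-fold higher without IL-3 than in parental cells. Rtp4, an interferon-induced relative of receptor-transporting chaperones, had 1.29 on A, 1.87 on B and 1.91 with IL-3. The B value was close to that with IL-3 and the A value stood below both, the widest gap between A and B of any antiviral gene called. Rtp4 was 2.99-fold higher by the mean of A and B (limma adjusted p = 3.08e-05, and 0.0507 after centring).

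Xaf1, an interferon-induced antagonist of the caspase inhibitor XIAP, was at 1.29 on A, 1.21 on B and 1.69 with IL-3. Ifi35, which pairs with Nmi in a cytoplasmic complex, had 1.13, 1.06 and 1.03 in that order. Bst2, or tetherin, holds budding virus particles at the cell surface, and its values were 1.04 on A, 0.84 on B and 1.15 with IL-3. These 3 genes were 2.38-fold, 2.14-fold and 1.92-fold higher without IL-3 than in parental cells, with limma adjusted p of 3.16e-05, 0.000128 and 0.000746. Their A and B values all lay above the parental 0.

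A further 4 effectors were called with smaller differences, and all 4 lost the call after centring. Nmi stood at 0.51 on A, 0.79 on B and 0.38 with IL-3 (limma adjusted p = 0.0173). Ifitm3, which blocks fusion of viruses in endosomes, had 0.69 on A, 0.52 on B and 0.55 with IL-3 (limma adjusted p = 0.0201). Mov10, an RNA helicase that restrains retroelements, was at 0.53 on A, 0.52 on B and 0.48 with IL-3 (limma adjusted p = 0.0405). Eif2ak2, or PKR, a kinase that halts translation on double-stranded RNA, had 0.58, 0.46 and 0.30 in that order (limma adjusted p = 0.0457). Their differences hardly moved with centring, at 0.64 for Ifitm3 with it and 0.61 without it. The centred fit has fewer prior degrees of freedom, as given above.

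The 10 type I effectors that were not called ran between -0.36 and 0.50 (log2, BCR-ABL without IL-3 minus parental). Adar, which edits adenosine to inosine in double-stranded RNA, came nearest, with 0.54 on A, 0.47 on B and 0.58 with IL-3 (limma adjusted p = 0.053). Ifitm1, a relative of Ifitm3, was lowest, with -0.08 on A, -0.64 on B and -0.37 with IL-3. Its 2 probe sets went the same way, at -0.0387 and -0.1234 on A and -0.574 and -0.7159 on B. Daxx and the nuclear body protein Sp100 were at 0.28 and 0.12, the DNA exonuclease Trex1 at 0.26, and the cytosolic antibody receptor Trim21 at 0.10. Ly6e, a membrane protein that hinders coronavirus fusion, stood at -0.03, and the translation repressor Samd9l at -0.05. For Ly6e the interval of 95% ran between -0.35 and 0.30.

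Several of these genes lie beside each other in the RefSeq gene order (assembly GRCm38.p6) and are known to share induction by interferon, and their values differed. Rsad2 and Cmpk2, a nucleotide kinase of mitochondria that is known to act with viperin, are neighbours. Cmpk2 stood at 0.05 on A, -0.03 on B and 0.08 with IL-3, beside Rsad2 at 1.86, 1.85 and 2.0041. The interval of 95% for Cmpk2 against parental cells was -0.32 to 0.33 on the log2 scale. In the IFITM cluster, Ifitm5, Ifitm2, Ifitm1, Ifitm3 and Ifitm6 follow each other in that order. Ifitm2 had log2 differences of -0.07 on A, -0.15 on B and -0.21 with IL-3, and its 3 probe sets all lay below 0 on every BCR-ABL array. The genes at the ends of this run, Ifitm5 and Ifitm6, are not among the 42 and were picked once their values were known. Ifitm5 was called lower, with -0.58 on A, -0.75 on B and -0.64 with IL-3 (limma adjusted p = 0.0113 without IL-3 against parental). Ifitm6 was called higher, with 2.63 on A, 2.22 on B and 2.02 with IL-3 (limma adjusted p = 4.66e-08). Members of this cluster are similar in sequence, and whether their probes also bind each other's transcripts was not tested.

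**Figure D2:**
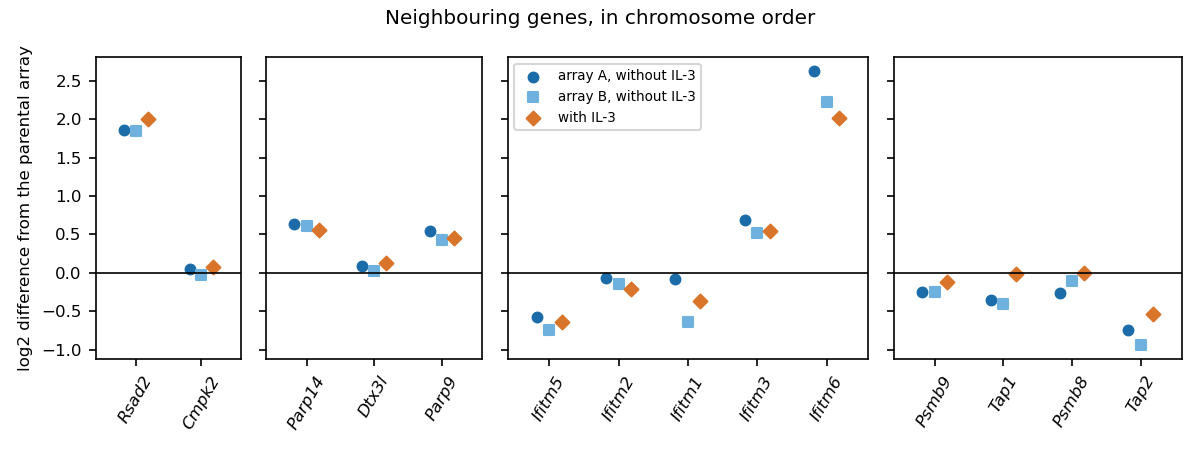
Log2 difference from the parental array (y axis, parental at 0) for 4 runs of genes that follow each other in the RefSeq order, with a point for each BCR-ABL array. Rsad2 is near 1.9 beside Cmpk2 near 0, and Dtx3l near 0 lies between Parp14 and Parp9. The 5 IFITM genes plotted range between -0.75 and 2.63. Tap2 is the lowest of the run from Psmb9 to Tap2, and the gene after it, H2-Ob, is not plotted.

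The gene starts were searched for the response elements of both interferon classes. The windows come from RefSeq (GRCm38.p6) and span 250 bases before to 50 after a start, and 27 of the 37 measured genes had at least 1. Zbp1, Mx1, Mx2, Rtp4, Dhx58, Iigp1, Parp14, Parp9, Ly6e and Tap2 had none. The counts below therefore leave out several of the genes with the largest differences and the only gene called lower. The interferon-stimulated response element was searched as GAAA repeated after any 2 bases and the gamma-activated site as TTCNNNGAA, on both strands. Of the 27 genes 10 held the response element, where 3.99% of 27025 genes in the table did (3.44% of 32851 windows). They were 7 of the 12 genes called higher that had a window (Bst2, Ddx58, Eif2ak2, Gbp3, Ifitm3, Irgm1 and Rsad2) and 3 of the 15 not called (Ifih1, Ifitm2 and Trim21). The gamma-activated site was found in 5 of the 27, namely Bst2, Eif2ak2, Ifi35, Ifitm3 and Adar, where 9.55% of all genes held it (8.30% of windows). A match is a run of letters and not a measured binding site, and genes without one may hold an element that these letters miss or that lies outside the window.

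The 150 bases before the start are printed for Rsad2 and its neighbour Cmpk2, for 3 genes that rose and hold overlapping response elements, and for Ifitm2, which holds the element and was not called. Each is given 5′ to 3′ on the strand of its gene, and capitals mark matches to the interferon-stimulated response element on either strand. Rsad2 is at chr12:26456453-26456602 on the minus strand, Cmpk2 at chr12:26469065-26469214 on the plus strand, Bst2 at chr8:71537473-71537622 on the minus strand, Gbp3 at chr3:142559894-142560043 on the plus strand, Irgm1 at chr11:48871421-48871570 on the minus strand and Ifitm2 at chr7:140955962-140956111 on the minus strand.
Rsad2: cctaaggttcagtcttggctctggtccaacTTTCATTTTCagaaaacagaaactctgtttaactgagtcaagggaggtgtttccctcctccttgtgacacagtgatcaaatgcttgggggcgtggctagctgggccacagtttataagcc
Cmpk2: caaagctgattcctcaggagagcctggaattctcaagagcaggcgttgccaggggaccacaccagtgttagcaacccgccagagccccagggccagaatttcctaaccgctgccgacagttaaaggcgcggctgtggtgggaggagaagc
Bst2: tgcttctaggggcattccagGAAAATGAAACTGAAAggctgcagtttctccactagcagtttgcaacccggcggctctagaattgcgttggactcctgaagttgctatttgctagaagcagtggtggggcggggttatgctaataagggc
Gbp3: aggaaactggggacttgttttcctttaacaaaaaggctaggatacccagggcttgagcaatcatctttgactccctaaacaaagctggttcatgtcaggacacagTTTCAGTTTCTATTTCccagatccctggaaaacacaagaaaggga
Irgm1: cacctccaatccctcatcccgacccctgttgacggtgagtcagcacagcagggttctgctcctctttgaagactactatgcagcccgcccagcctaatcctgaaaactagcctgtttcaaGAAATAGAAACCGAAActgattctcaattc
Ifitm2: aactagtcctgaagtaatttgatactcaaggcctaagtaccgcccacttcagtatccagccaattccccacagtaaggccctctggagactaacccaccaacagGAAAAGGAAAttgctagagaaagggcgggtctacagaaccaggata
The Rsad2 match begins 120 bases before the start and the Cmpk2 window holds none. In Bst2, Gbp3 and Irgm1 a pair of matches overlaps, beginning 130 and 124, 45 and 39, and 30 and 24 bases before the start. In Bst2 the gamma-activated site overlaps the first match. Gbp3 has a further window with no match. Trim21, which was not called, also holds an overlapping pair, which lies after its start and is not printed.

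GTPases of the interferon-gamma response were represented by 3 measured genes, and all 3 were called higher, after centring too. Iigp1 and Irgm1 are immunity-related GTPases: the first disrupts the vacuoles of intracellular parasites and the second regulates its relatives and autophagy. Iigp1 stood at 1.18 on A, 1.55 on B and 1.45 with IL-3, and was 2.57-fold higher without IL-3 than in parental cells (limma adjusted p = 3.83e-05). Irgm1 had 1.41 on A, 1.16 on B and 1.24 with IL-3 (2.44-fold, limma adjusted p = 3.94e-05). Gbp3, a guanylate-binding protein, was at 0.77 on A, 0.93 on B and 0.89 with IL-3 (1.81-fold, limma adjusted p = 0.00156). On these genes the array with IL-3 lay between A and B. The other GTPases of the set, Gbp2, Igtp and Ifi47, have no value for the reason given above.

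Of the 4 RNA sensors 2 were called higher and 0 lower. Dhx58, or LGP2, a regulator of the other RIG-I-like receptors, was at 1.57 on A, 1.52 on B and 1.74 with IL-3, and was 2.92-fold higher without IL-3 than in parental cells (limma adjusted p = 2.63e-06). Ddx58 encodes RIG-I, the sensor of 5′-triphosphate RNA. It had 0.69 on A, 0.55 on B and 0.77 with IL-3 (1.53-fold, limma adjusted p = 0.017, and 0.0576 after centring). Trim25, a ubiquitin ligase known to act on RIG-I, was at 0.36 on A, 0.24 on B and 0.45 with IL-3 and was not called (limma adjusted p = 0.373). Ifih1 encodes MDA5, the sensor of long double-stranded RNA, and stood at -0.16 on A, -0.17 on B and -0.05 with IL-3. Its interval of 95% against parental cells, -0.49 to 0.16 on the log2 scale, did not reach the values of Dhx58 or Ddx58. The probe set of Ifih1 was dim, while those of Dhx58 and Ddx58 were not.

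Among enzymes of ADP-ribosylation, Parp14, a mono-ADP-ribosyltransferase that modulates STAT signalling, was called higher and the other 3 were not. Parp14 stood at 0.63 on A, 0.61 on B and 0.56 with IL-3 (1.54-fold, limma adjusted p = 0.0142, and 0.0543 after centring). Parp9 had 0.55 on A, 0.43 on B and 0.45 with IL-3 (limma adjusted p = 0.0616). Dtx3l, the ubiquitin ligase that works in a complex with Parp9, lies between these genes in the RefSeq order and was at 0.09 on A, 0.02 on B and 0.13 with IL-3. Parp12, which blocks translation of viral RNA, stood at 0.00 on A, -0.16 on B and 0.15 with IL-3. Its probe set was dim.

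Of the 3 peptide-loading genes 1 was called lower and 0 higher. Tap2, a subunit of the transporter that carries peptides into the endoplasmic reticulum, was the only antiviral gene called lower. It stood at -0.74 on A, -0.94 on B and -0.54 with IL-3, and was 1.79-fold lower without IL-3 than in parental cells (log2 SE 0.16, limma adjusted p = 0.00205, and 0.0445 after centring). Tap1, the other subunit, had -0.35 on A, -0.41 on B and -0.02 with IL-3 and was not called (limma adjusted p = 0.18). Tapbp, or tapasin, which bridges the transporter and MHC class I, was at 0.54 on A, 0.21 on B and 0.62 with IL-3 (limma adjusted p = 0.251). The immunoproteasome genes Psmb9 and Psmb8, which alternate with Tap1 and Tap2 in the gene order, stood at -0.25 and -0.18 and were not called.

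On the array with IL-3, 12 of the 37 antiviral genes were at least 2-fold above the parental array and 0 were 2-fold below, where 1.10% of all genes were 2-fold above. This comparison of 1 array with 1 array has no replicate check, and it shares the parental array with the comparison above. The 12 genes were the 11 that were 2-fold higher on A and on B, with values between 1.03 and 2.42, and Bst2 at 1.15. The median log2 difference over the antiviral genes was 0.484, and 0.008 over all genes.

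Between BCR-ABL cells with IL-3 and those without it, limma called 0 of the 37 (smallest limma adjusted p = 0.645), and 1 of all 19935 genes, or 0.00502%. At an unadjusted p under 0.05 there were 3 antiviral genes (8.11%), against 4.52% of all genes. They were Mx2, Xaf1 and Tap1. Mx2 was at 2.21 with IL-3, against 1.63 on A and 1.77 on B (log2 difference 0.51, interval of 95% 0.18 to 0.84). Xaf1 was at 1.69 with IL-3, against 1.29 and 1.21 on A and B (0.44, interval 0.12 to 0.76). Tap1 was at -0.02 with IL-3, against -0.35 and -0.41 on A and B (0.35, interval 0.03 to 0.68).

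The differences between BCR-ABL cells with and without IL-3 ran from -0.27 for Nmi to 0.51 for Mx2, with a median of 0.077, against 0.034 over all genes. In 18 of the 37 genes (48.6%) the array with IL-3 lay above both A and B, and over all genes in 39.9%. By role, these 18 were 9 of the 23 type I effectors (39.1%), 2 of the 4 ADP-ribosylation genes, 4 of the 4 RNA sensors, 3 of the 3 peptide-loading genes and 0 of the 3 GTPases. It lay below both in 7 genes (18.9%), against 25.5% of all genes. A and B themselves differed by a median of 0.122 in size over the antiviral genes, against 0.126 over all genes, and B was above A in 5 of the 37 (13.5%), against 33.8% of all genes. These counts share A and B with the first comparison. They carry no test.

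**Figure D3:**
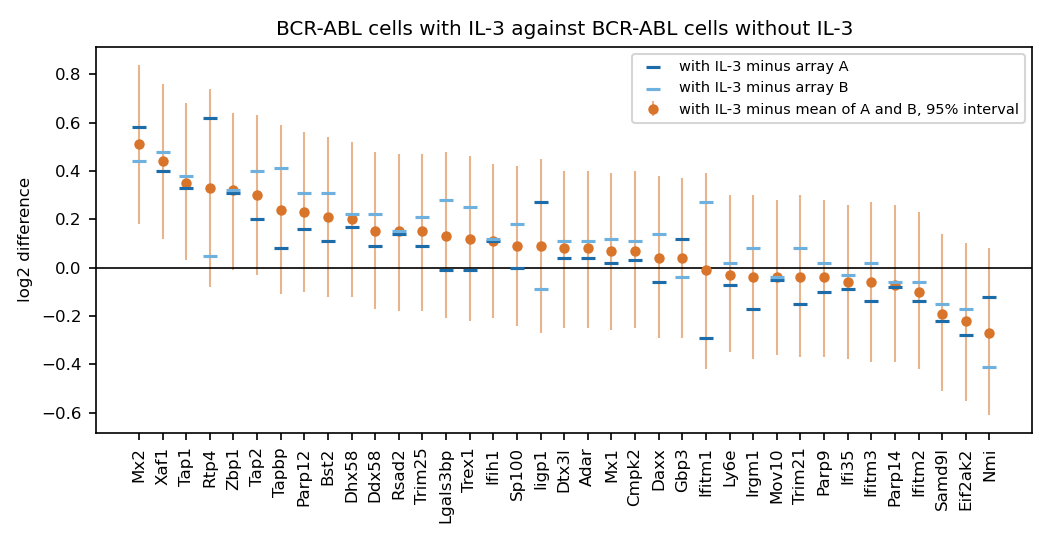
Log2 difference of BCR-ABL cells with IL-3 minus BCR-ABL cells without IL-3 (y axis) for the 37 antiviral genes, ordered by size. Circles are the array with IL-3 minus the mean of A and B with the limma interval of 95%, and dashes are the differences from A and from B alone. The values run from 0.51 for Mx2 to -0.27 for Nmi, and the intervals of all but Mx2, Xaf1 and Tap1 include 0.

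The rest of the interferon pathway was read from lists chosen by function. Of 23 measured ligands, receptors and signal transducers 2 were called higher and 1 lower without IL-3 against parental cells, with a median log2 difference of -0.025. Of all genes 5.19% were called higher and 2.87% lower, the shares to set beside this list and those that follow. The 9 measured interferon genes, Ifnb1 and Ifng among them, ran between -0.14 and 0.17, and 0 were called. Levels were not analysed, and a transcript absent from every array would also lie near 0. Irf7, the transcription factor that amplifies the type I response, stood at 2.20 on A, 2.01 on B and 2.61 with IL-3 (4.31-fold without IL-3 against parental, limma adjusted p = 7.86e-08). Irf9 had 0.87 on A, 0.55 on B and 0.92 with IL-3 (limma adjusted p = 0.0105, and 0.0729 after centring). Ifngr1, the ligand-binding chain of the interferon-gamma receptor, was lower, at -1.18 on A, -1.03 on B and -1.07 with IL-3 (2.15-fold lower without IL-3, limma adjusted p = 0.000139, and 0.0307 after centring). The chains of the type I receptor, Ifnar1 and Ifnar2, were at 0.04 and 0.02 and were not called.

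Among 16 measured sensors and adaptors upstream of interferon 3 were called higher and 0 lower, with a median of 0.173. The shares of all genes called were 5.19% higher and 2.87% lower. Sting1, the adaptor of cytosolic DNA sensing, stood at 1.28 on A, 1.43 on B and 1.13 with IL-3 (2.56-fold without IL-3 against parental, limma adjusted p = 1.57e-05). The DNA sensor Cgas at 0.74 and the lipopolysaccharide receptor Tlr4 at 0.73 lost the call after centring. Of 8 measured feedback regulators 2 were called higher and 0 lower. Usp18, which silences the type I receptor, stood at 3.79 on A, 3.68 on B and 3.83 with IL-3 (13.3-fold without IL-3 against parental, limma adjusted p = 5.11e-11). Ptpn2, a phosphatase of JAK and STAT proteins, was at 0.80 and lost the call after centring.

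Of 21 further measured genes of the interferon-gamma GTPase and MHC class I list 9 were called higher and 0 lower, with a median of 0.420. The shares of all genes were 5.19% and 2.87%. After centring 6 of the 21 were called higher, and 384 of all 19935 genes. The guanylate-binding genes Gbp4 and Gbp5 were at 0.84 and 0.87 (limma adjusted p = 0.00153 and 0.00108). Gbp7, Gbp11 and Nlrc5, the transactivator of MHC class I genes, were at 0.57, 0.87 and 0.56 and lost the call after centring. Psmb10, an immunoproteasome subunit, was at 0.85 and the proteasome activator Psme2 at 0.71. Cxcl10, a chemokine induced by interferon, and Socs1, an inhibitor of JAK kinases, were at 1.74 and 1.79. The 12 genes not called ran from -0.25 for Psmb9 to 0.50 for Gbp9. Among them Cxcl9 was at 0.01, Ciita at -0.06, Psme1 at 0.05, B2m at 0.32 and Gbp8 at 0.32. The genes H2-K1 and H2-D1 were on this list but have no value here.

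**Figure D4:**
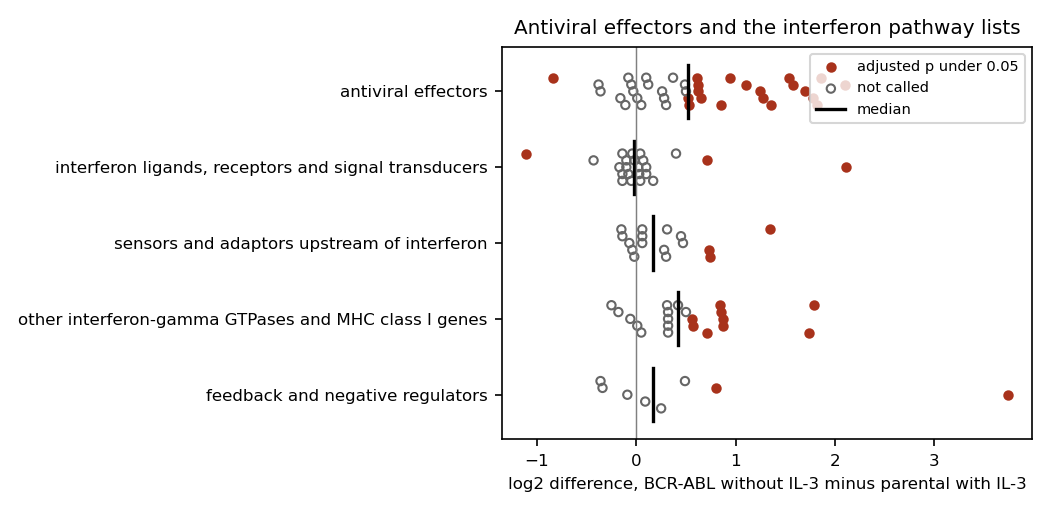
Log2 difference of BCR-ABL cells without IL-3 minus parental cells (x axis) for the 37 antiviral genes and 4 lists of the interferon pathway. Filled points were called by limma at an adjusted p under 0.05, open points were not, and vertical bars are medians, at 0.520 for the antiviral genes and -0.025 for ligands, receptors and transducers.

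Markers of several cell types, the B lineage of the line itself among them, were set beside these values. Of 6 macrophage and monocyte markers 1 was called, Adgre1, higher at 1.74 (log2, BCR-ABL without IL-3 minus parental, limma adjusted p = 6.23e-07), while Csf1r, Cd14, Itgam, Lyz2 and Mrc1 lay between -0.19 and 0.20. Of 7 B lineage, 3 plasmacytoid dendritic cell, 6 T and NK cell and 4 fibroblast markers 0 were called, with medians of -0.117, -0.089, -0.102 and -0.117. The part of other cell types in the antiviral values was not tested.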

How the data were processed

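The deposited table holds, per the file headers, 1 value for each of 28815 probe sets on 4 arrays. What the authors did to make these log2 values (background, normalization, summary) was not given in the labels or the table. They are differences from the parental array, since its column is 0 throughout. The base of the logarithm is stated in no label and was taken as 2. Of 86431 non-zero values, 99.7% fall on a grid of 2 to the power -21 within their printed digits, which is the single-precision step of numbers between 4 and 8. That range fits log2 array signals but does not settle the base. An odd grid position implies that the number stored for at least 1 array was under 8, and such a probe set is called dim. The reverse does not hold: a number under 8 can also give an even position, so a probe set not called dim may still hold one. This held for 1 probe set each of Mx2, Rsad2, Ifih1, Iigp1 and Parp12.

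The annotation gave 1 symbol for 21780 probe sets and several for 1605, and left out 5430. Genes were fitted in limma (version 3.58.1, R 4.3.3) with 3 group means, no trend and 1 residual degree of freedom, the difference of A and B. The arrays without a replicate were taken to vary as much as A and B do, and the prior, estimated from that 1 degree of freedom, sets the size of the p-values. P-values are two-sided with Benjamini-Hochberg adjustment over 19935 genes. On simulated data with this design the fit called the planted changes, but more of its calls were false than the threshold allows, so its p-values may be too small. The simulated spread was drawn from the prior of the fit itself, so a pair A and B with only technical spread was not simulated.

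The genes, lists and tests were chosen with earlier results of these data known. Genes called and the first 2 not called by size in each role are given with every array. Cmpk2, Dtx3l, Ifitm2, Ifitm5, Ifitm6 and H2-Ob were given so once their values were known. The alternatives tried were centring each array to a median of 0, leaving out A or B, a threshold of 0.1, a fit of the 2 groups compared alone, leaving out dim probe sets, and testing each probe set by itself. The number of arrays limits the precision.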

Additional observations from a re-analysis of the deposited data

How the results depend on the processing

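With array medians set to 0, 12 antiviral genes were called higher without IL-3 against parental cells, as given above, and over all genes the calls were 384 higher and 186 lower, against 1035 and 572 without centring. For BCR-ABL cells with IL-3 against those without, the count over all genes called higher was 0 after centring, 2 at a threshold of 0.1 and 3 when each probe set was tested by itself, against 1. The median log2 difference of the antiviral genes without IL-3 against parental cells ranged between 0.465 and 0.540 when A or B was left out. The number at least 2-fold higher was 11 and 12 in the same settings, where no test is possible because no residual degree of freedom is left. Leaving out dim probe sets, which removes Mx2, Rsad2, Ifih1, Iigp1 and Parp12, left 8 antiviral genes at least 2-fold higher and 15 called higher, against 11 and 19. Of the 12972 genes left in all, 969 were called higher. The probe sets kept may still hold numbers under 8, as given above. Of the 4 antiviral calls lost, those of Mx2, Rsad2 and Iigp1 went with their probe sets, and Eif2ak2 was no longer called (limma adjusted p = 0.0516). The fit of the compared groups alone gave the same counts of antiviral genes called. This had to be so and is no check, since the group left out is 1 array that adds nothing to the spread.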
